A study of Mus musculus with 13 samples.

Results

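Trp53, the gene for the tumour suppressor p53, and 9 genes that p53 is known to switch on were followed in differentiating female mouse embryonic stem cells (mESCs) with and without knockdown of Smarcc1. The members were fixed by symbol, Trp53, Cdkn1a, Mdm2, Ccng1, Trp53inp1, Bax, Bbc3, Pmaip1, Sesn2 and Phlda3, and all 10 were found among the 25965 rows of the expression table. All 10 also passed the filter on low values and were among the 13406 genes tested.

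The cells were female FVB/CAST F1 mESCs, with an FVB/NJ mother and a CAST/EiJ father. They were grown in 2i medium and differentiated by weaning into DME HiHi medium. Day0 was 1 library of undifferentiated cells. The Nons, Smarcc1.6 and Smarcc1.7 groups had 1 library each on days 4, 5, 6 and 7. These 12 carried a retroviral short hairpin RNA (shRNA), delivered on day 2 and followed by puromycin on day 3. Nons was the nonsilencing control, and Smarcc1.6 and Smarcc1.7 were hairpins against Smarcc1, whose product is a scaffold subunit of the chromatin remodeller BAF. Day0 cells were not transduced, so a difference between Day0 and a later day cannot be told apart from transduction and selection. No label says that the days were separate cultures, so p-values measure the spread between these libraries only.

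p53 is a transcription factor that is kept low in unstressed cells by Mdm2, a ubiquitin ligase that marks it for degradation and is itself a p53 target. DNA damage and other stresses release p53, which then activates genes for cell cycle arrest, for repair and metabolism, and for death. Much of this control acts on the p53 protein, which an RNA level does not measure. mESCs carry abundant p53, and their response to damage leans towards death and differentiation over a lasting arrest.

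The sequences that lowered Smarcc1 are shown first, since each knockdown comparison rests on them. The guides are 22 bases long, are written 5′ to 3′ as DNA, and have their seed (bases 2 to 8) in capitals.
Smarcc1.6: tGTAACTGcttcttcatcctgc
Smarcc1.7: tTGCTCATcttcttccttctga
Nons: cTTACTCTcgcccaagcgagag
The first 21 bases of the Smarcc1.6 guide were complementary to coding sequence in exon 13 of 28 of Smarcc1, at chr9:110177473-110177493 (mm10, transcript on the plus strand). Those of Smarcc1.7 were complementary to coding sequence in exon 11, at chr9:110173912-110173932. The Nons guide matched 0 Smarcc1 transcripts. The level of Smarcc1, in log2 CPM (the log2 of counts per 1000000 mapped reads), was 9.10, 8.87, 8.28 and 7.89 in Nons on days 4, 5, 6 and 7. The Smarcc1.6 libraries held 7.42, 7.40, 7.28 and 7.28, and the Smarcc1.7 libraries 7.96, 7.78, 7.17 and 7.51. Smarcc1 was below same-day Nons in each of the 8 hairpin libraries, by 1.06 on the log2 scale on average (a change of -1.06, SE 0.14, limma adjusted p = 0.00232), and the gap was narrowest on day 7.

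A second set of sequences shows where p53 could bind near its targets. p53 binds DNA as a tetramer to an element made of 2 half-sites, each a run of purines, a C, A or T bases, a G and a run of pyrimidines. RefSeq windows of 300 bases, from 250 before to 50 after the start of a gene (build GRCm38.p6), were searched for this 10-base p53 half-site, which reads the same on both strands. Of the 10 members 8 had a window that was searched. Trp53inp1 had no entry, and the Pmaip1 window was not used here. A half-site lay in a window of 5 of the 8, namely Bax, Mdm2, Ccng1, Trp53 and Cdkn1a. Over all 27025 genes with a window the share was 9.55%. The half-sites are in capitals below, with 10 bases on either side, and none of these stretches touched an annotated exon.
Cdkn1a: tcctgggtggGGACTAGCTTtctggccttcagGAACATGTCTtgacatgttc
Mdm2: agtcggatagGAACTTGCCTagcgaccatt
Ccng1: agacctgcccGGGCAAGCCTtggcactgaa
Bax: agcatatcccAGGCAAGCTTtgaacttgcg
Trp53: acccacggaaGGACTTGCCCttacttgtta
The stretches lie at chr17:29090896-29090947 on the plus strand for Cdkn1a, chr10:117710925-117710954 on the minus strand for Mdm2, chr11:40755452-40755481 on the minus strand for Ccng1, chr7:45467080-45467109 on the minus strand for Bax and chr11:69580274-69580303 on the plus strand for Trp53. Only Cdkn1a, among the members searched, held 2 half-sites within 13 bases of each other, with 12 bases between them. A full element of that kind was in 20 of the 27025 genes (0.074%). The 10 bases printed directly after the second Cdkn1a half-site differ from the pattern in their first base only. The strict search did not count them. The windows of Phlda3 and Sesn2, the 3 windows of Bbc3 and the other window of Cdkn1a (chr17:29093519-29093818) held no half-site. That says only that these letters were not there. A match is a description of sequence, and no binding was measured here.

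Depth ran from 13993440 to 63548079 mapped reads per library, and a member had between 336 (Bbc3) and 25995 (Trp53inp1) reads in a library. Day0 and the 3 libraries of day 6 stood apart from the rest, where 85.3% to 86.5% of mapped reads fell in genes. In the remaining 9 libraries that share was 91.7% to 92.6%. On day 6, 559 of the 13406 tested genes were at least 1 log2 unit above, or below, the mean of days 5 and 7 in each of the 3 groups, and 0 of the 10 members were among them. The library medians drifted with time, from between -0.12 and -0.09 on day 4 to between 0.10 and 0.13 on day 7 (log2, relative to their mean). The cells carried stem cell markers. Summed over 10 pluripotency genes the level was 5553 CPM in Day0 and 1114 to 2835 CPM on days 4 to 7. Pou5f1 had the highest mean of the 10 over those days, 10.1 log2 CPM, so the sum follows it most.

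Knockdown was first compared with Nons over the 4 days. None of the 10 members passed the test in either direction, with both hairpins pooled and day as a factor in limma (adjusted p under 0.05), and 1 of 10 had an unadjusted p under 0.05. Over all tested genes, 6.88% were higher and 4.77% were lower in knockdown, 1561 genes in all, and 28.1% had an unadjusted p under 0.05. The median change of the members was 0.05 on the log2 scale, against -0.01 over all genes. With the sign left out, the medians were 0.138 for the members and 0.135 for all genes. The members' standard errors had a median of 0.08, below the 0.10 of all genes. Their 95% intervals ran at the widest from -0.37 (Trp53) to 0.55 (Bbc3).

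**Figure D1:**
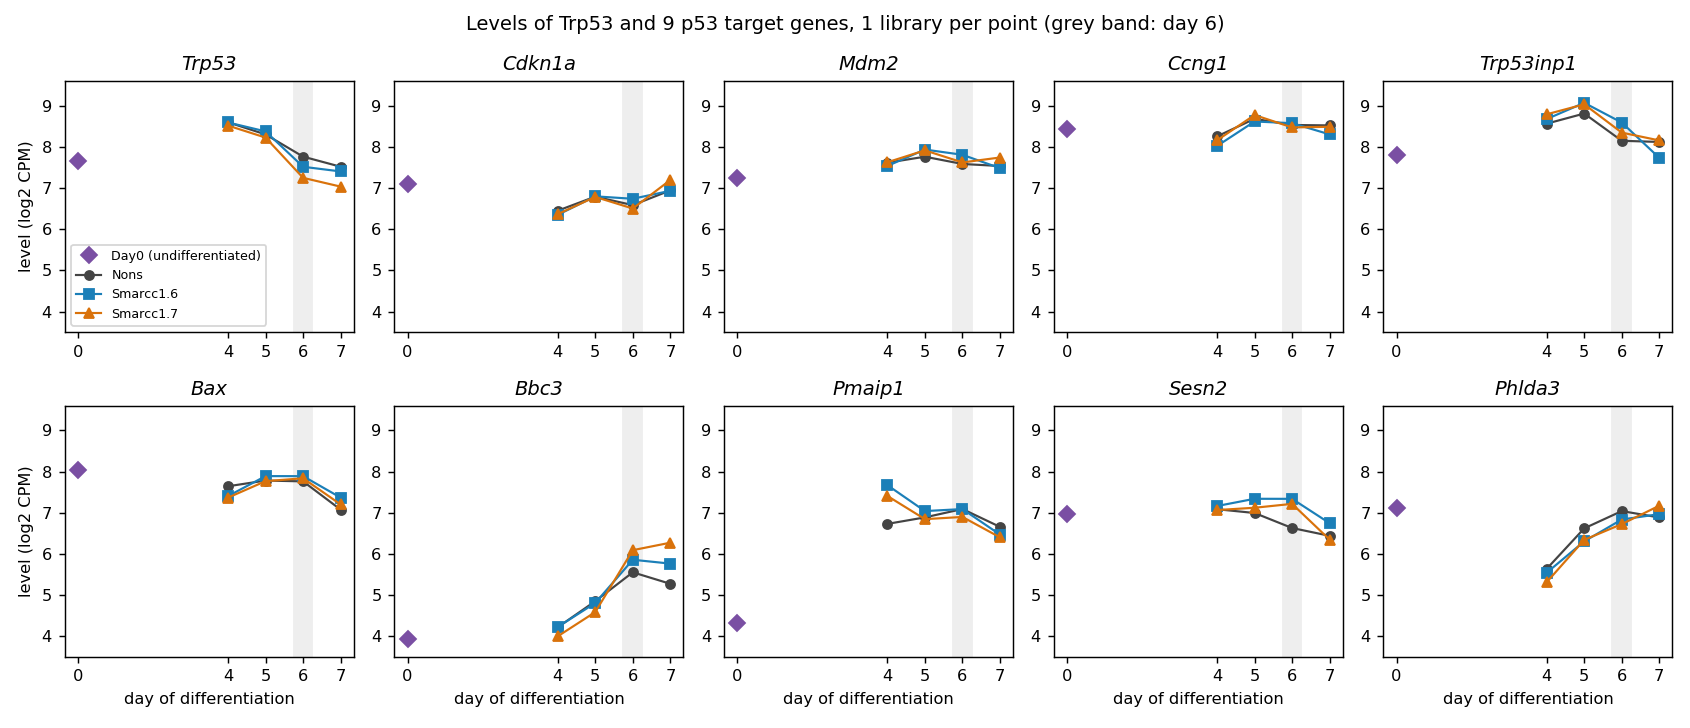
Level of each member in log2 CPM (vertical axis) against the day of differentiation (horizontal axis), with 1 point per library. The purple diamond is Day0, and lines join the libraries of Nons (circles), Smarcc1.6 (squares) and Smarcc1.7 (triangles). The 3 lines of a gene mostly run together while the gene moves over time, as for Trp53, Bbc3 and Phlda3, and Pmaip1 sits far above its Day0 level of 4.32.

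Trp53 itself (chr11:69580359-69591873, plus strand) was highest early in differentiation. Its level was 7.65 log2 CPM in Day0, and 8.60, 8.30, 7.76 and 7.52 in Nons on days 4 to 7. The Smarcc1.6 libraries held 8.59, 8.38, 7.52 and 7.40, and the Smarcc1.7 libraries 8.52, 8.23, 7.25 and 7.03. Every day 4 library was above Day0, every day 7 library was below it, and days 4 and 7 did not overlap in any group. The fitted change was -0.45 per day (SE 0.05, limma adjusted p = 2.16e-05), and -0.43 per day without day 6.

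In Nons the Trp53 transcript fell to 0.473 of its day 4 level by day 7. Against same-day Nons, Trp53 changed by -0.18 (SE 0.09, adjusted p = 0.201) over both hairpins. The values by hairpin were -0.07 (SE 0.08, limma adjusted p = 0.641) for Smarcc1.6 and -0.29 (SE 0.08, adjusted p = 0.0897) for Smarcc1.7. With Smarcc1.7 it was lower on all 4 days, by 0.08 on days 4 and 5, 0.52 on day 6 and 0.48 on day 7 (log2). The difference between the hairpins had an unadjusted p of 0.0243 in limma and an adjusted p of 0.989. Between the hairpins 0% of all tested genes passed the adjusted threshold and 530 had an unadjusted p under 0.05, so no member is called there. Reads from the pseudogene Trp53-ps numbered 2 in Nons on day 4 and 0 in the other 12 libraries.

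Mdm2 and Ccng1 lie on the feedback side of the pathway. Ccng1 encodes cyclin G1, a p53 target that works with a phosphatase on Mdm2. Mdm2 (chr10:117688888-117710758, minus strand) was at 7.24 log2 CPM in Day0, and at 7.62, 7.76, 7.59 and 7.54 in Nons on days 4 to 7. Smarcc1.6 libraries had 7.54, 7.94, 7.81 and 7.48, and Smarcc1.7 libraries 7.63, 7.92, 7.62 and 7.74. All 12 later libraries were above Day0, within a band from 7.48 to 7.94. Mdm2 had a knockdown change of 0.08 (SE 0.06, limma adjusted p = 0.412) and a change per day of -0.02 (SE 0.04, adjusted p = 0.684).

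Ccng1 (chr11:40748552-40755311, minus strand) was at 8.44 log2 CPM in Day0 and at 8.26, 8.68, 8.53 and 8.52 in Nons. It was at 8.02, 8.62, 8.58 and 8.30 with Smarcc1.6 and at 8.16, 8.77, 8.47 and 8.49 with Smarcc1.7. In each group the lowest library was day 4 and the highest was day 5. The knockdown change was -0.07 (SE 0.06, limma adjusted p = 0.47), and the change per day was 0.07 (SE 0.06, adjusted p = 0.306). Its 95% interval for knockdown, from -0.20 to 0.06, was the narrowest of the 10.

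Cdkn1a (chr17:29090979-29100722, plus strand) encodes p21, an inhibitor of cyclin-dependent kinases and the main arm of p53 in cell cycle arrest. Its level was 7.11 log2 CPM in Day0 and 6.45, 6.79, 6.59 and 6.94 in Nons on days 4 to 7. It was 6.35, 6.80, 6.74 and 6.93 with Smarcc1.6, and 6.37, 6.79, 6.50 and 7.20 with Smarcc1.7. Of the 12 later libraries 1, Smarcc1.7 on day 7, was above Day0. The knockdown change of Cdkn1a was 0.02 (SE 0.07, limma adjusted p = 0.901), with a 95% interval from -0.13 to 0.16. Over time it rose by 0.17 per day (SE 0.05, adjusted p = 0.00918). With each library centred on its median, which removes the drift of all genes, the rise was 0.09 per day and no longer passed (limma adjusted p = 0.139). Without day 7 it was 0.11 per day (adjusted p = 0.215).

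3 members, Sesn2, Phlda3 and Trp53inp1, act in the stress response beside arrest and death. Sesn2 encodes sestrin 2, which restrains growth signalling through mTORC1 and is also a target of the integrated stress response. Phlda3 encodes a repressor of the kinase Akt. Trp53inp1 encodes a stress protein that p53 induces and that promotes the p53 response.

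Sesn2 (chr4:132492032-132510501, minus strand) had the largest knockdown change of the members. It was at 6.96 log2 CPM in Day0, and at 7.09, 6.99, 6.63 and 6.44 in Nons on days 4 to 7. Smarcc1.6 libraries had 7.16, 7.34, 7.34 and 6.75, and Smarcc1.7 libraries 7.06, 7.12, 7.21 and 6.35. It was above same-day Nons in 6 of 8 hairpin libraries, most on day 6, by 0.71 and 0.59. The knockdown change was 0.25 (SE 0.10, unadjusted p = 0.0277, limma adjusted p = 0.123). For Smarcc1.6 alone the change was 0.36 (SE 0.11, limma adjusted p = 0.0565), and for Smarcc1.7 alone 0.15 (SE 0.11, adjusted p = 0.438). Without day 6 the change over both hairpins was 0.12 (limma adjusted p = 0.532). Sesn2 also fell by 0.19 per day (a change of -0.19, SE 0.06, adjusted p = 0.0168). Over the groups together that fall rested on day 7, since the change was -0.02 per day without it (limma adjusted p = 0.78). In Nons the level already fell from 7.09 on day 4 to 6.63 on day 6, while it rose with both hairpins.

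Phlda3 (chr1:135766119-135769136, plus strand) was lower on day 4 than in Day0 and rose afterwards. The level was 7.12 log2 CPM in Day0 and 5.64, 6.62, 7.04 and 6.88 in Nons. It was 5.54, 6.30, 6.84 and 6.97 with Smarcc1.6, and 5.31, 6.34, 6.72 and 7.17 with Smarcc1.7. All day 4 libraries were below all others, and in Nons day 4 was at 0.358 of Day0. The rise was 0.50 per day (SE 0.07, limma adjusted p = 9.33e-05), and 0.47 without day 6. In knockdown Phlda3 was below same-day Nons on days 4, 5 and 6 with both hairpins and above it on day 7, with a fitted change of -0.15 (SE 0.08, limma adjusted p = 0.276). Without day 7 the change was -0.26 and passed the test (adjusted p = 0.0321), as it did without Nons of day 7 alone (limma adjusted p = 0.0449).

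Trp53inp1 (chr4:11156431-11174379, plus strand) was at 7.81 log2 CPM in Day0 and at 8.57, 8.81, 8.15 and 8.12 in Nons. It was at 8.68, 9.07, 8.59 and 7.73 with Smarcc1.6, and at 8.79, 9.03, 8.35 and 8.16 with Smarcc1.7. It was highest on day 5 in each group, and 11 of the 12 later libraries were above Day0. It fell by 0.26 per day (a change of -0.26, SE 0.07, limma adjusted p = 0.00899), but without day 7 the change was -0.16 (adjusted p = 0.224). Knockdown gave 0.14 (SE 0.09, limma adjusted p = 0.362), with 7 of 8 hairpin libraries above same-day Nons. The exception was Smarcc1.6 on day 7, at -0.39, and without day 7 the change was 0.24 (limma adjusted p = 0.037).

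Bax, Bbc3 and Pmaip1 encode proteins of the BCL-2 family, which decides whether mitochondria release the signals for apoptosis. Bax forms the pores in the outer membrane, and PUMA, from Bbc3, and NOXA, from Pmaip1, are BH3-only proteins that free or activate it. Bax (chr7:45461695-45466898, minus strand) was at 8.03 log2 CPM in Day0, above all 12 later libraries. It was at 7.64, 7.78, 7.76 and 7.07 in Nons, at 7.40, 7.89, 7.89 and 7.37 with Smarcc1.6, and at 7.37, 7.77, 7.84 and 7.20 with Smarcc1.7. Bax had no one direction over time. The change was -0.08 per day over days 4 to 7 (SE 0.07, limma adjusted p = 0.398), 0.18 without day 7 (adjusted p = 0.0258) and -0.30 without day 4 (adjusted p = 0.0151). The knockdown change of Bax was 0.02 (SE 0.07, limma adjusted p = 0.856).

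Bbc3 (chr7:16309616-16318205, plus strand) showed the steepest rise of the 10. It was at 3.93 log2 CPM in Day0 and at 4.22, 4.85, 5.55 and 5.27 in Nons. With Smarcc1.6 it was at 4.22, 4.81, 5.86 and 5.76, and with Smarcc1.7 at 4.00, 4.59, 6.09 and 6.27. All 12 later libraries were above Day0, and days 6 and 7 were above days 4 and 5 in each group. The rise was 0.60 per day (SE 0.09, limma adjusted p = 0.000295), and 0.54 without day 6. By day 7 Nons stood at 2.08 times its day 4 level. The knockdown change was 0.23 (SE 0.15, limma adjusted p = 0.345).

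Pmaip1 (chr18:66458604-66465550, plus strand) differed most from Day0. It was at 4.32 log2 CPM there, and at 6.73, 6.89, 7.09 and 6.66 in Nons on days 4 to 7. Against Day0, Nons was 5.32 times as high on day 4 and 6.84 times as high on day 6, the day whose libraries shared the lower share of reads in genes with Day0. Of all tested genes, 6.64% were raised more than Pmaip1 between Day0 and Nons on day 4. Its levels in Smarcc1.6 were 7.67, 7.04, 7.09 and 6.47, and those in Smarcc1.7 were 7.41, 6.84, 6.90 and 6.40. The hairpin libraries of day 4 were the highest of all 13. Over both hairpins the knockdown change was 0.14 (SE 0.13, limma adjusted p = 0.547). Pmaip1 fell by 0.22 per day (a change of -0.22, SE 0.07, adjusted p = 0.0157), though not past the threshold without day 4 (-0.21, adjusted p = 0.0614) or without day 7 (-0.12, adjusted p = 0.321).

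**Figure D2:**
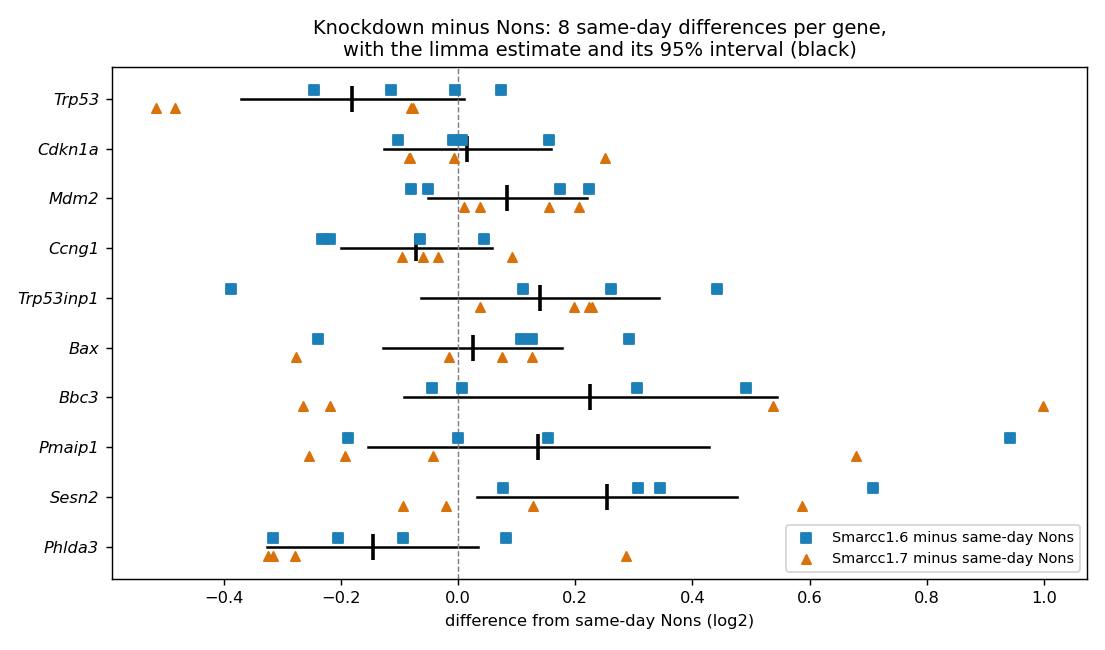
Difference of each hairpin library from Nons of the same day (horizontal axis, log2) for each member (vertical axis). Squares are Smarcc1.6 and triangles Smarcc1.7, the black tick is the limma estimate over both hairpins and the black line its 95% interval. The interval of Sesn2, 0.03 to 0.48, lies above 0, the other 9 cross 0, and none passed the test after adjustment over all genes.

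The question of time was then put to the members as a whole. Between days 4 and 7, 7 of the 10 passed the test for a change per day. Libraries of the same day counted as separate points in that fit, though the slope rests on 4 days. Its p-values can therefore be too small, for the members and for all genes. Bbc3, Phlda3 and Cdkn1a rose, and Trp53, Trp53inp1, Pmaip1 and Sesn2 fell. Over all tested genes 34.9% rose and 25.6% fell, so a share of this size was common among genes in these cells. The median change per day was -0.05 for the members and 0.04 for all genes. Trp53, Bbc3 and Phlda3 passed in each of the 25 alternatives run, while the calls of Cdkn1a, Trp53inp1, Pmaip1 and Sesn2 were lost in some. Differentiation moves many genes at once, and markers moved over the same days. Of the 10 pluripotency markers 7 fell and 0 rose, beside 25.6% and 34.9% of all genes, with a median of -1.03 per day. The highest of them, Pou5f1, had -0.06 per day (limma adjusted p = 0.539). Trophoblast markers summed to between 51.2 and 89.5 CPM on day 4 and between 2730 and 3525 CPM on day 7, with 0 of the 6 genes at 0 reads in those libraries. That sum followed the keratins Krt8 and Krt18 of simple epithelia, which rose by 2.57 and 2.15 per day. Cdx2 rose by 0.69 per day, Gata3 and Tfap2c had 0.04 and -0.05 (limma adjusted p = 0.762 and 0.642), and Elf5 was too low to be tested. Mesenchymal and smooth muscle markers went from between 104 and 117 CPM to between 1264 and 1647 CPM, with 0 of 7 at 0 reads. In bulk RNA fewer cells of a type and less RNA per cell cannot be told apart, and the part of these markers in the members' changes was not tested.

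**Figure D3:**
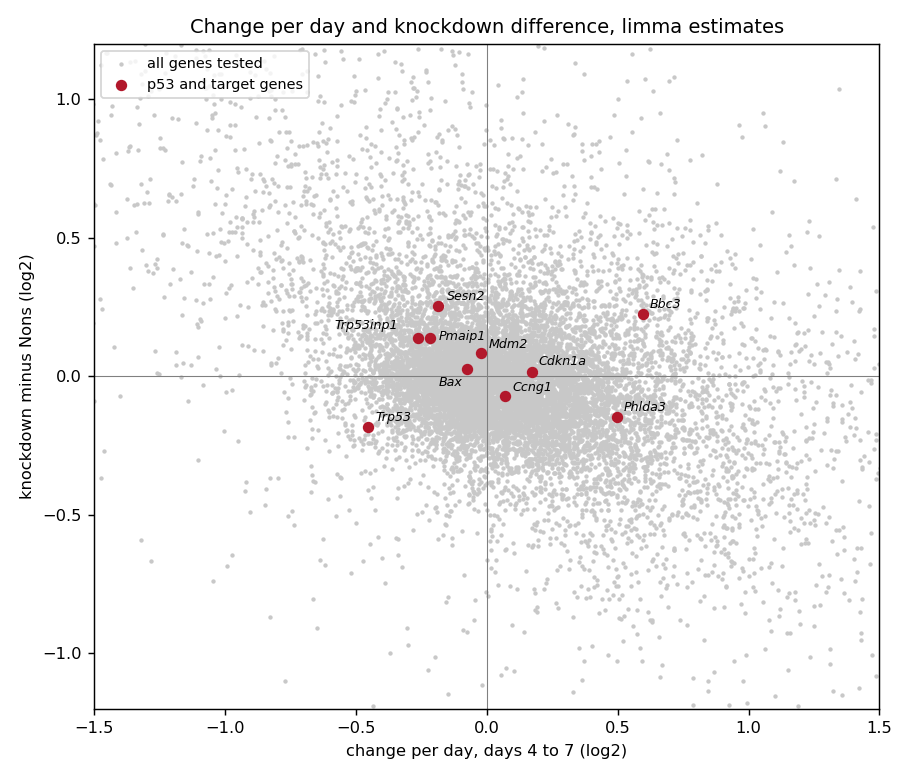
Change per day over days 4 to 7 (horizontal axis, log2) against the knockdown difference (vertical axis, log2) for the members (red) and all tested genes (grey), 427 of which lie outside the axes. The members ran from -0.45 for Trp53 to 0.60 for Bbc3 per day, and from -0.18 for Trp53 to 0.25 for Sesn2 in knockdown. With the sign left out, the median change per day was 0.202 for the members and 0.225 for all tested genes. In knockdown these medians were 0.138 and 0.135.

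Each hairpin was also compared with Nons on its own. With Smarcc1.6, 0 of 10 members passed, against 5.59% of genes higher and 3.71% lower. With Smarcc1.7, 0 of 10 passed, against 1.69% higher and 0.768% lower. At an unadjusted p under 0.05 there was 1 member in each, Sesn2 for Smarcc1.6 and Trp53 for Smarcc1.7, beside 25.1% and 21.2% of all genes. Of the 80 same-day differences between a hairpin library and Nons, 40 were above 0, and their median was 0.003. Sesn2 passed for Smarcc1.6 without day 4, without Nons of day 4 and without Nons of day 7, and Trp53 passed for Smarcc1.7 without Nons of day 4. These comparisons share the Nons libraries.

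The knockdown difference was next tested for a change over the days, with a product of knockdown and day in the model. Pmaip1 passed, 1 of the 10 members, with a slope of -0.32 per day (SE 0.07, limma adjusted p = 0.0338). Over all genes 2.43% had a rising and 1.32% a falling difference. Pmaip1 was above Nons on day 4 by 0.94 with Smarcc1.6 and 0.68 with Smarcc1.7, and below it on day 7 by 0.19 and 0.25. The slope rested on day 4, being -0.14 without that day (adjusted p = 0.561) and -0.14 without Nons of day 4 alone (limma adjusted p = 0.526). With day as a number in place of a factor 0 of all 13406 genes passed, so that fit says nothing of Pmaip1.

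The other 2 members of the BCL-2 family, Bbc3 and Bax, had slopes of the opposite sign that did not pass. For Bbc3 the difference from Nons was 0.01 and -0.22 on day 4, and 0.49 and 1.00 on day 7, a slope of 0.31 per day (SE 0.09, limma adjusted p = 0.0933). It passed in 1 of the 18 alternatives run for this value, the one without Smarcc1.6 of day 7 (0.38, limma adjusted p = 0.0454). For Bax it was -0.24 and -0.28 on day 4, and 0.29 and 0.13 on day 7, a slope of 0.15 (SE 0.05, limma adjusted p = 0.112). This slope also passed in 1 of 18 alternatives, the one without Smarcc1.7 of day 7 (0.17, limma adjusted p = 0.047). The knockdown of Smarcc1 itself was shallower on day 7, at -0.61 and -0.38, than on day 4, at -1.68 and -1.14. Of the 12 tested BCL-2 family genes outside the members, 1 passed this test, the BH3-only gene Hrk (0.58 per day, SE 0.14, limma adjusted p = 0.0425), which is named after its value was seen.

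**Figure D4:**
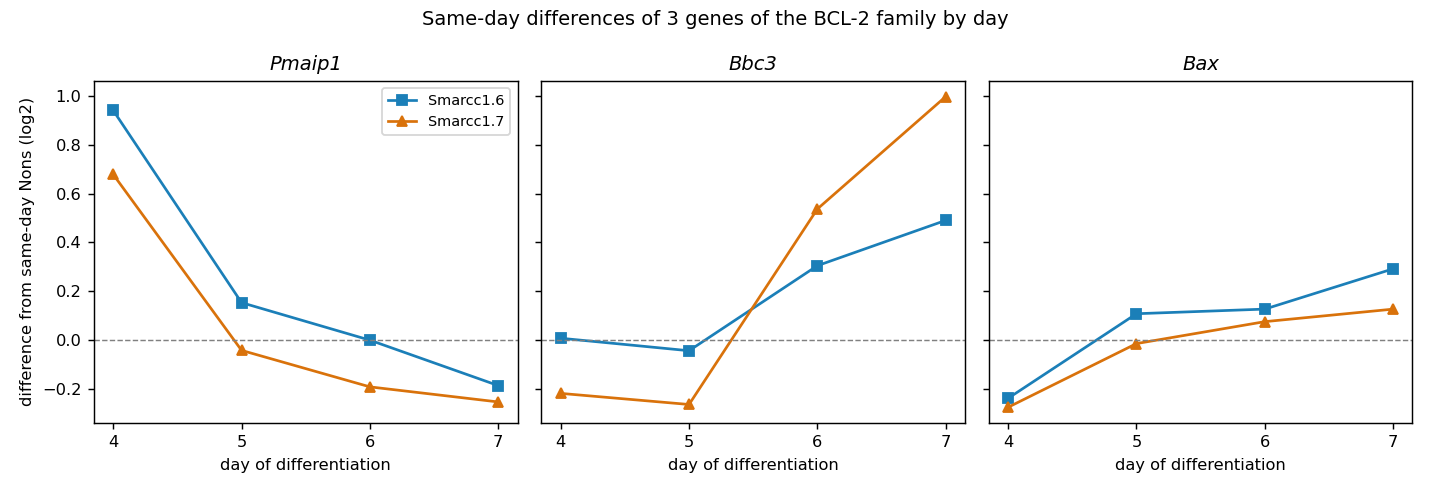
Difference from same-day Nons (vertical axis, log2) against the day of differentiation (horizontal axis) for Pmaip1, Bbc3 and Bax, with 1 point per hairpin library. Both lines of Pmaip1 start above 0.6 and end below 0, those of Bbc3 end between 0.49 and 1.00, and those of Bax cross from below 0 to above it.

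Levels of different members were compared per length, as log2 CPM per kilobase of exon. In Nons, Bax was highest at 6.91 ± 0.33 (SD, n = 4 days), followed by Ccng1 at 6.69 ± 0.18, Trp53 at 6.03 ± 0.49, Phlda3 at 5.90 ± 0.63 and Trp53inp1 at 5.72 ± 0.34. Pmaip1 came next at 5.39 ± 0.19, then Mdm2 at 5.28 ± 0.10, Sesn2 at 4.99 ± 0.30 and Cdkn1a at 4.86 ± 0.22, with Bbc3 lowest at 3.89 ± 0.58. These SDs hold the change over days. Neighbours in this order lay within the larger of their SDs, except Ccng1 against Trp53 and Cdkn1a against Bbc3. Annotated exons of other genes covered 7.68% of the exon bases of Cdkn1a and 12.2% of those of Bax, and those reads could belong to either gene, since whether the counting used strand is not given in the sources used here.

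Likeness was measured over the 12 libraries after the mean of each day was subtracted, which leaves the spread among 3 libraries a day. Among all tested genes Trp53 was most like Vps52 (Pearson r = 0.967), Smcr8 (0.966) and Ddi2 (0.961). Cdkn1a was most like Gigyf2 (0.977), Srrm1 (0.961) and R3hdm1 (0.952), and Mdm2 was most like 9930021J03Rik (0.937), Asxl1 (0.932) and Zmat3 (0.931). Within the members, Cdkn1a and Mdm2 were the most alike of the pairs with either of them (r = 0.816), and Trp53 ran opposite to Bbc3 (r = -0.792). The points share day, library and hairpin, and the highest of so many correlations is high by choice.

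The wider pathway was described with lists of genes. Of the regulators of p53, 19 were tested, and 2 were higher and 1 was lower in knockdown, beside 6.88% and 4.77% of all genes. Trp73, the gene for the p53 relative p73, was at 5.30, 4.54, 3.19 and 1.68 log2 CPM in Nons and higher in each of the 8 hairpin libraries, by 0.68 on average (SE 0.15, limma adjusted p = 0.0143). Atr, a kinase that signals replication stress to p53, was higher by 0.36 (SE 0.08, adjusted p = 0.0122), also in 8 of 8. Kat5, which encodes the acetyltransferase TIP60, was lower in 8 of 8 (a change of -0.25, SE 0.07, limma adjusted p = 0.0449). Over time 3 of the 19 rose and 11 fell, beside 34.9% and 25.6% of all genes, and their median change per day was -0.21, beside 0.04 over all genes.

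Of 47 other p53 targets, 10 were higher and 2 were lower in knockdown, beside the 6.88% and 4.77% of all genes, and the median change was 0.13. With Smarcc1.6 alone 10 of the 47 passed in either direction, beside 5.59% of all genes higher and 3.71% lower. With Smarcc1.7 alone 1 of the 47 passed, beside 1.69% higher and 0.768% lower. Gadd45a, a stress gene of growth arrest and DNA repair, was at 5.38, 4.64, 5.07 and 4.66 log2 CPM in Nons on days 4 to 7. It was at 6.06, 5.34, 5.97 and 5.47 with Smarcc1.6, and at 5.83, 5.09, 6.12 and 5.41 with Smarcc1.7. The groups kept apart on each day, with a change of 0.73 (SE 0.09, limma adjusted p = 0.00145), and it passed with each hairpin alone. Ephx1, an epoxide hydrolase, was higher by 0.83 (SE 0.18, adjusted p = 0.0137), in 8 of 8 libraries.

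9030617O03Rik was higher by 1.92 (SE 0.39, limma adjusted p = 0.0111) while falling from 2.84 to -3.31 log2 CPM in Nons between days 4 and 7. It had 5 reads in Nons on day 6 and 3 on day 7, and same-day differences of 0.13 and 0.20 on day 4, where Nons had 427 reads, so the size of that change rests on days with few reads. Igfbp3, whose product binds insulin-like growth factors, was lower (a change of -0.75, SE 0.16, limma adjusted p = 0.0136) in 6 of 8 libraries. Without day 6 the counts in this list were 2 higher and 0 lower, beside 1.62% and 0.522% of all genes, and without day 5 they were 3 and 1, beside 2.08% and 0.798%. Over all 4 days 6.88% of all genes were higher in knockdown and 4.77% were lower. Pluripotency markers were higher in knockdown as well, 8 of 10 with a median change of 1.00. Nanog (0.741, limma adjusted p = 0.0859) and Pou5f1 (0.075, adjusted p = 0.604) did not pass. Of the 3 tested mesoderm markers T and Eomes were lower (changes of -2.50 and -0.92), of the 4 endoderm markers Sox17, and of the 5 trophoblast markers Krt8. Of the 5 neuroectoderm markers Sox1 and Otx2 were higher, and of the 6 mesenchymal and smooth muscle markers Col1a2. The part of these markers in the differences was not tested.

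None of the 12 tested genes of the rest of the BCL-2 family passed in knockdown, beside 6.88% of all genes higher and 4.77% lower. The smallest p-values were those of Bik, at 0.54 (SE 0.18, limma adjusted p = 0.0776), and Bcl2l11, the gene for the BH3-only protein BIM, at 0.21 (SE 0.08, adjusted p = 0.102). Over time 8 of the 12 rose and 0 fell, with a median of 0.28 per day, beside 34.9% and 25.6% of all genes. In the integrated stress response, whose factor ATF4 also acts on Sesn2, 1 of 17 genes passed in knockdown, beside the same 6.88% and 4.77%. It was Ddit4, an inhibitor of mTORC1, higher in 8 of 8 libraries by 0.58 (SE 0.14, limma adjusted p = 0.0197). In that list 12 of 17 rose over time and 0 fell, beside 34.9% and 25.6% of all genes, with a median of 0.52 per day.

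The last list held cell division genes that are known to fall when p21 is raised. Of 18 tested, 1 was higher and 1 was lower in knockdown. Mybl2, a factor of the cell cycle, was higher in 8 of 8 libraries by 0.50 (SE 0.08, limma adjusted p = 0.00349), and Foxm1, a factor of mitosis, was lower in 8 of 8 (a change of -0.26, SE 0.08, adjusted p = 0.0488). Over all genes 6.88% were higher and 4.77% were lower. The median change was 0.05. Over time 5 rose and 7 fell, beside 34.9% and 25.6% of all genes.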

How the data were processed

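RNA-seq libraries of 13 samples were analysed. Per the study's methods and the labels, the authors trimmed reads with trim_galore, aligned them with tophat or hisat2 (TopHat2 2.0.12 in the submitters' processing notes) to mm10 with FVB/CAST positions masked, and counted genes in Seqmonk. The annotation release is not given in the sources used here. The deposited values are log2 CPM, scaled by the authors to mapped reads, and a gene with no read was written as 0.9 reads. Low values fell on whole reads within 0.02 in 100% of cases, which gave each library's depth.

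Tested genes averaged 0 log2 CPM or more over days 4 to 7. They were fitted with limma 3.58.1 in R 4.3.3 (eBayes with a trend), and p-values were adjusted by Benjamini-Hochberg over all 13406 genes. Day entered as a factor for knockdown and hairpins, and group as a covariate for change per day. In the fit of change per day, libraries of the same day counted as separate points. Replicate numbers 1 to 4 are days 4 to 7, which pairs libraries by day. Day0 entered no test. The models were tested on simulated data. The members and lists were chosen with earlier results of these data known. Besides the 10 members and Smarcc1, up to 5 list genes with the largest called knockdown change were named, or the 2 with the smallest p. A further gene that this rule takes is not reported here. Exon lengths came from GENCODE M21, promoters from RefSeq and guides from the study's oligonucleotide list. Python 3.11.15, numpy 2.4.6, pandas 2.3.3 and matplotlib 3.10.9 were used.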

Additional observations from a re-analysis of the deposited data

Results flagged for a closer look

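The knockdown difference of Pmaip1 changed over the days, with a product of knockdown and day of -0.325 on the log2 scale per day (limma adjusted p = 0.0338, day as a factor). Pmaip1 was above Nons on day 4 in 2 of 2 hairpin libraries and below it on day 7 in 2 of 2. Both hairpin libraries of a day were set against the same Nons library, so these are not separate comparisons. Without Nons of day 4 the value was -0.14 and did not pass. In the 18 alternatives run for this value it kept its sign and lay between -0.45 and -0.14, and 8 of them passed the threshold. No library stood far from the other 3 of its group in any of the 30 sets of 4 libraries (10 members in 3 groups), where chance would give about 1.5. Each set holds days 4 to 7, so change over time counts as spread, and this check cannot clear a library.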

How the results depend on the processing

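Of 149 recounts of called members, 127 stayed at their value or within 1.5 times. With no filter on low values, 1 member, Sesn2, passed for Smarcc1.6. For the interaction, 0 members passed with no trend (272 of all genes did), with Smarcc1.6 and Nons only (40), with Smarcc1.7 and Nons only (86), and with day as a number (0), an alternative chosen after the data were seen, against 503 genes otherwise. Leaving out a library or a day gave 0 to 2 members in knockdown, 0 to 1 for Smarcc1.6, 0 to 1 for Smarcc1.7, 4 to 7 for change per day and 0 to 2 for the interaction, and 0 throughout between the hairpins. Without the replicate block of day, 0 members passed in knockdown, for either hairpin or between them, where 4, 0, 0 and 0 of all genes passed, so these counts say nothing of the members. Of 260 knockdown values of members, 257 stayed on their side of the threshold, 12 of them with the opposite sign, and 3 newly passed. Of 250 values per day, 19 lost their call and 1 gained one. The change per day of Bax reversed, to 0.179, without replicate 4 (day 7), and was -0.299 without replicate 1 (day 4). Causes were not tested. With 1 library per group and day, the intervals of the members allow knockdown changes from -0.37 to 0.55 on the log2 scale.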
